A study of Mus musculus with 6 samples.

Results

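The genes described here encode the contractile and calcium handling machinery of heart muscle: 36 genes named by symbol, of which 31 were matched in a table of 16229 genes, and all 31 passed the filter on low values. Tnnc1, Actc1, Myom1, Xirp1 and Pln were not analysed here. The values come from poly-A RNA sequencing of hearts of male C57BL/6 mice, an inbred laboratory strain, aged 8 to 10 weeks, and the RNA was taken from the infarct and its surroundings. The 6 libraries form 3 groups of 2: untreated mice, mice given rivaroxaban at 3 mg/kg for 7 days, and mice given dabigatran at 10 mg/kg for 7 days. Rivaroxaban blocks coagulation factor Xa and dabigatran blocks factor IIa, thrombin, and each was given at 1 dose, so drug and dose cannot be told apart between them. The series is about ischemia-reperfusion injury, but the labels leave unsaid whether untreated mice had surgery or a vehicle. They also leave unsaid whether each library comes from a mouse of its own, so the p-values rest on a spread between libraries that may be technical. All 3 groups share strain, sex and age range.

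Heart muscle shortens when myosin heads of the thick filament pull on actin of the thin filament within a repeating unit, the sarcomere. Thin filaments are anchored at the Z-disc, thick filaments are held at the M-band, and titin spans from one to the other. Calcium starts each beat: it leaves the sarcoplasmic reticulum through the ryanodine receptor, binds troponin on the thin filament, and is then pumped back by SERCA or carried out of the cell by the sodium-calcium exchanger. Many of these genes are mutated in inherited cardiomyopathies or arrhythmias.

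None of the 31 sarcomere and calcium handling genes passed the test in hearts of mice given either drug. With limma at a Benjamini-Hochberg adjusted p of 0.05, rivaroxaban against untreated called 0 of 31, where 2.46% of all 12981 tested genes were called. Of all tested genes 1.47% were called higher and 0.986% lower. Dabigatran against untreated called 0 of 31, where 1.88% of all tested genes were called, 1.38% higher and 0.501% lower. Rivaroxaban against dabigatran called 0 of 31, with 0.077% of all tested genes called, all of them lower. The mean of both drugs against untreated called 0 of 31, with 3.3% of all tested genes called, 2.14% higher and 1.16% lower. At an unadjusted limma p under 0.05, 7, 2, 2 and 4 of the 31 genes were counted in these comparisons, against 17.2%, 14.7%, 8.43% and 18.2% of all tested genes. Fitting the same model with voom weights to reads recovered from the deposited values also called 0 of 31 in each of the 4 comparisons, with 8, 4, 3 and 5 genes at an unadjusted p under 0.05.

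The differences were small and their intervals narrow. Log2 differences lay between -0.20 and 0.26 with rivaroxaban and between -0.14 and 0.14 with dabigatran, and the median was -0.059 and -0.016, beside 0.005 and 0.003 over all tested genes. For all 31 genes the 95% interval of both drug comparisons lay within 1.5-fold in either direction. It lay within 1.2-fold for 23 of 31 genes with rivaroxaban and for 28 of 31 with dabigatran. A p that misses the threshold does not show that a gene was the same in both groups. These intervals give the sizes that remain possible under this fit, which draws each gene's spread toward that of genes of like level. For genes with discordant replicates this narrows the interval. The residual SD was 0.232 for Myom2 and 0.215 for Slc8a1, where the fit used standard errors of 0.131 and 0.126. Their own replicates alone would give wider intervals. The intervals are per gene and not adjusted for the number of genes. Given each gene's standard error, a rivaroxaban difference had to reach a median of 1.196-fold over the 31 genes, and from 1.16-fold to 1.48-fold, to be called.

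**Figure D1:**
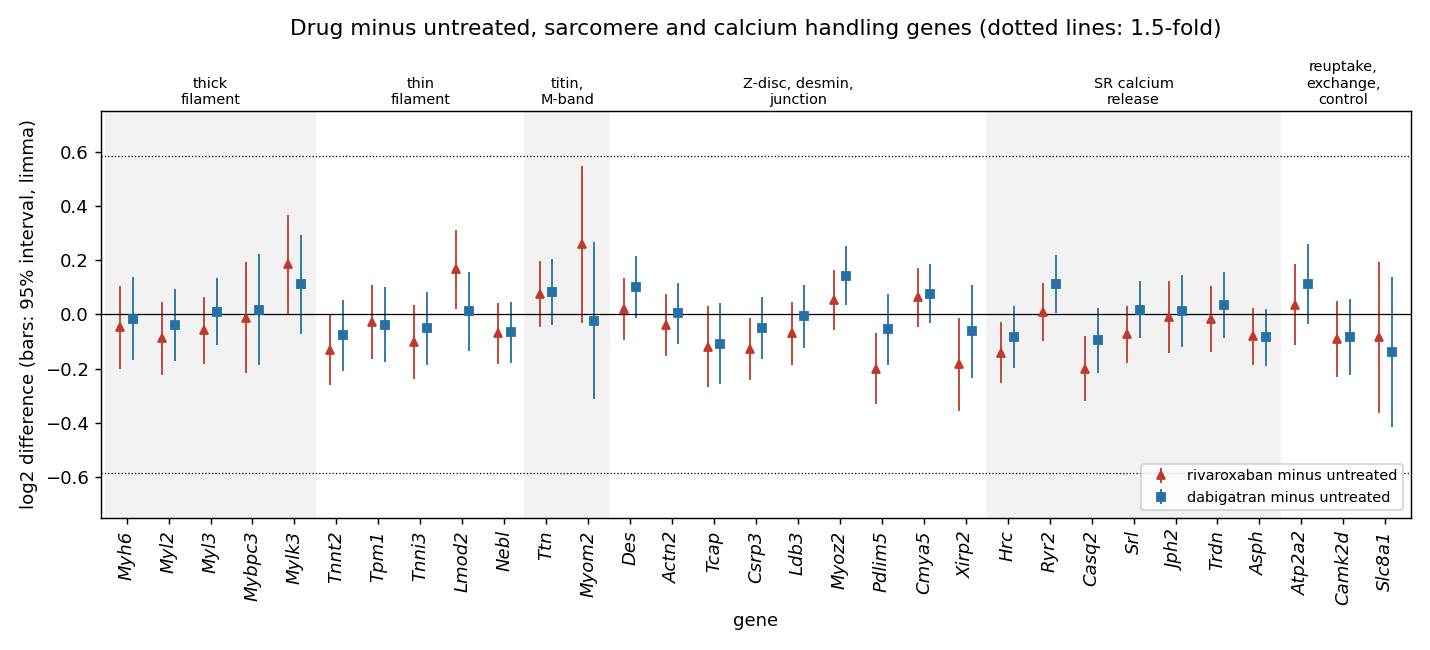
Log2 difference from untreated hearts (vertical axis) for the 31 sarcomere and calcium handling genes, with rivaroxaban as triangles and dabigatran as squares. Genes are ordered by role and, within a role, by mean log2 CPM not divided by length. Bars are 95% intervals from limma and dotted lines mark 1.5-fold. All bars stay between the dotted lines, and the longest upper bar is that of Myom2 with rivaroxaban, which reaches 0.55.

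Library depth ran from 27176892 to 43798222 reads over the genes of the table, and the 31 genes took between 13.8% and 14.4% of them. Each of the 31 genes had at least 2180 reads in every library. Of the markers fixed for other cell types, the summed level of 7 mesothelial markers was lower in every treated library (28.9 to 44.1 CPM, reads scaled to a common library total) than in the untreated ones (67.8 and 73.2 CPM), and 6 of these 7 were called with rivaroxaban and 2 with dabigatran. The summed level of 11 other cardiomyocyte genes was 26510 and 27680 CPM in untreated, 25960 and 26210 in rivaroxaban and 27410 and 27560 in dabigatran hearts, and none of the 11 was called. Sums of 7 fibroblast, 8 endothelial and 8 macrophage markers overlapped between the 3 groups. Of these only endothelial Emcn was called, lower with rivaroxaban, and it was also called for the mean of both drugs. The sum of 7 smooth muscle and pericyte markers was 1270 and 1286 CPM in untreated, 1262 and 1270 in rivaroxaban and 1311 and 1321 in dabigatran hearts, with Myh11 called lower with rivaroxaban. Slc4a1 was the only 1 of 6 named red cell markers analysed. It stood at 0.807 and 0.216 CPM in untreated, 1.81 and 1.23 in rivaroxaban and 2.54 and 1.70 in dabigatran hearts. It was called higher with dabigatran and with the mean of both drugs. Both untreated values lay below the filter level, a mean log2 CPM of 0. Slc4a1 passed the filter only through the treated libraries, so this call is not independent of the filter. The 3 atrial markers analysed summed to between 76.7 and 120 CPM, most of it from Nppa. Among them Myl7, at 17 to 64 reads per library, had log2 differences of -1.17 with rivaroxaban and -0.93 with dabigatran (limma adjusted p = 0.147 and 0.291). Those of Nppa and Myl4 lay between -0.058 and 0.097. Of 9 skeletal muscle markers the 5 analysed summed to at most 6.07 CPM. The part of these cell types in the values below was not tested. In tissue RNA, fewer cells of a type and less RNA per cell cannot be told apart.

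The levels compared between genes here were divided by the merged exon length, as CPM per kilobase averaged over the 6 libraries on the log scale. That length joins all annotated exons of a gene and can exceed the transcript present in heart. It was 6726 bases for Myh6, 7752 for Tnnt2, 22493 for Camk2d and 18807 for Slc8a1. The order below therefore depends on the annotation as well as on the reads. Myh6, the alpha myosin heavy chain of the adult mouse heart, had the highest level, 5648 CPM per kb, followed by the ventricular myosin light chains Myl2 (5348) and Myl3 (3855), the calcium pump gene Atp2a2 (3020) and cardiac troponin I, Tnni3 (2820). The lowest were Camk2d (8.59), a calcium-dependent kinase, and Slc8a1 (3.93), the sodium-calcium exchanger. Ttn, the gene of the giant protein titin, stood at 31.9 CPM per kb with 116825 merged exon bases. The order was nearly the same in each group: Myh6, Myl2 and Myl3 held ranks 1 to 3 in all 3 groups, and Camk2d and Slc8a1 held ranks 30 and 31.

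**Figure D2:**
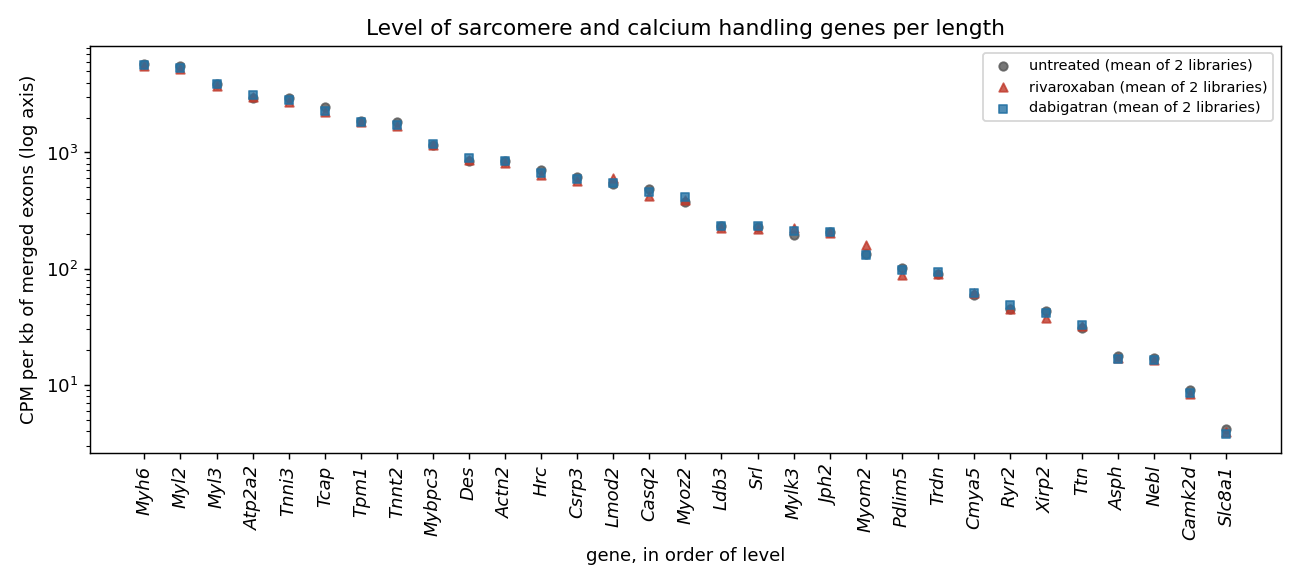
Level of each of the 31 genes in CPM per kb of merged exons (log axis), in order of the mean over all libraries; each point is the mean of the 2 libraries of a group. The level runs from 5648 CPM per kb for Myh6 to 3.93 for Slc8a1, and the points of the 3 groups lie close together for each gene.

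RefSeq promoter windows of 300 bases (assembly GRCm38.p6) were matched for 25 of the 31 genes, 35 windows in all. Motifs were searched on both strands. MEF2 is a muscle transcription factor, and its site stood in 5 of 35 windows (14.3%), those of Casq2, Mybpc3, Myoz2, Ttn and Xirp2, against 3.19% of all 32851 windows. The CArG box, bound by serum response factor, stood in 4 of 35 (11.4%), from Ldb3, Myl3 and Nebl, against 1.63%. CATTCC, the MCAT element bound by TEAD factors, stood in 7 of 35 (20.0%), against 14.7% of all windows. The GATA site searched, AGATAA, stood in 7 of 35 (20.0%), against 11.2% of all windows. The TATA box, searched as TATAAA, stood in 3 of 35 (8.6%), against 13.6% of all windows, and it can lie inside a MEF2 site. Windows of one gene can overlap, and a match is a run of letters, not a site shown to be used. The windows of Myh6, the gene with the highest level per length, and of Casq2, the gene with the smallest p with rivaroxaban over all 6 libraries, are shown 5′ to 3′ with motif matches in capitals, credited to RefSeq. In the Myh6 window (chr14:54966558-54966857, minus strand) the capitals mark an MCAT element on the opposite strand and a TATA box. In the Casq2 window (chr3:102086165-102086464, plus strand) they mark a MEF2 site. Windows were placed by RefSeq starts. GENCODE places the start of Myh6 at 54966927 on the minus strand, so the whole Myh6 window lies inside its GENCODE gene span.
Myh6: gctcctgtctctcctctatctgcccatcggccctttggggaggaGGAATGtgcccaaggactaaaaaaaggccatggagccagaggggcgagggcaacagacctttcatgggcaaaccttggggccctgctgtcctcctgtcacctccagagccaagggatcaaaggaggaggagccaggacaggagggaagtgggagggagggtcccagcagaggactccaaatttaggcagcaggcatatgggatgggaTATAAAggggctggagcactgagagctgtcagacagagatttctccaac
Casq2: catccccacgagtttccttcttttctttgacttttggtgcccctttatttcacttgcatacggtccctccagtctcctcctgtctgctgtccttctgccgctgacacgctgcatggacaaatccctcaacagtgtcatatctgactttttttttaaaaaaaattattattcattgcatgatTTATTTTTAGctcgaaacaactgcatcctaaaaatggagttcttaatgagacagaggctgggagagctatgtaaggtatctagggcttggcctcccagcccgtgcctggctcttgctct

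The first role group was the thick filament, and none of its 5 genes passed. Myh6 (ENSMUSG00000040752, mm10 chromosome 14, 54941921 to 54966927) stood at 15.22 and 15.25 log2 CPM in untreated hearts, 15.18 and 15.20 with rivaroxaban and 15.20 and 15.23 with dabigatran. Rivaroxaban libraries lay just under the untreated ones and dabigatran libraries overlapped them. The log2 difference was -0.047 (95% interval -0.20 to 0.11) with rivaroxaban and -0.016 (-0.17 to 0.14) with dabigatran, with limma adjusted p = 0.771 and 0.947. Myl2 and Myl3 encode the light chains that sit on the myosin neck. Myl2 stood at 13.40 and 13.38 log2 CPM in untreated, 13.26 and 13.35 in rivaroxaban and 13.36 and 13.34 in dabigatran hearts, all treated libraries being lower, with log2 differences of -0.088 and -0.040. Myl3 stood at 12.95 and 12.97 log2 CPM in untreated, 12.91 and 12.89 in rivaroxaban and 12.98 and 12.96 in dabigatran hearts, with rivaroxaban lowest, and its log2 differences were -0.059 and 0.010. Mybpc3, cardiac myosin-binding protein C, differed more between replicates than between groups: its libraries stood at 12.11 and 12.37 in untreated, 12.23 and 12.23 in rivaroxaban and 12.13 and 12.38 log2 CPM in dabigatran hearts. Mylk3, the kinase of the cardiac light chain, stood at 9.58 and 9.85 log2 CPM in untreated, 9.81 and 9.99 in rivaroxaban and 9.82 and 9.83 in dabigatran hearts. One untreated library was lower than all treated ones and the other was not. Mylk3 had a log2 difference of 0.18 with rivaroxaban (SE 0.083, limma adjusted p = 0.289) and 0.11 with dabigatran (limma adjusted p = 0.595). The rivaroxaban value was 0.053 without untreated replicate 8 and 0.32 without untreated replicate 9.

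Of the thin filament, 5 of 7 named genes were analysed and none passed. Tnnt2, cardiac troponin T (ENSMUSG00000026414, chromosome 1, 135836354 to 135852260), had closely matched replicates. Its libraries stood at 13.78 and 13.80 log2 CPM in untreated, 13.66 and 13.67 in rivaroxaban and 13.71 and 13.72 in dabigatran hearts. The 3 groups did not overlap, with rivaroxaban lowest. The log2 difference was -0.13 with rivaroxaban (interval -0.26 to 0.001, limma adjusted p = 0.297) and -0.077 with dabigatran (-0.21 to 0.054, limma adjusted p = 0.604). Its interval is wider than its own replicates would give, because the test draws each gene's spread toward that of genes of like level. Tnni3, which encodes the inhibitory troponin subunit, had log2 differences of -0.10 and -0.052, and Tpm1, tropomyosin, of -0.028 and -0.038.

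Lmod2, leiomodin-2, which lengthens actin filaments, went the other way from most thin filament genes. Its libraries stood at 10.02 and 10.09 log2 CPM in untreated, 10.15 and 10.29 in rivaroxaban and 9.99 and 10.15 in dabigatran hearts. Both rivaroxaban libraries lay above the untreated ones, while dabigatran libraries overlapped them. The log2 difference was 0.17 with rivaroxaban (SE 0.066, limma adjusted p = 0.231) and 0.15 between rivaroxaban and dabigatran (limma adjusted p = 0.561). Without rivaroxaban replicate 15 these values of Lmod2 were 0.098 and 0.087, and the second was 0.076 without dabigatran replicate 10 and 0.23 without replicate 12. Nebl, nebulette, an actin-binding protein at the Z-disc end of the thin filament, stood at 7.98 and 8.05 log2 CPM in untreated, 7.94 and 7.95 in rivaroxaban and 7.98 and 7.92 in dabigatran hearts. All treated libraries were lower than the untreated ones, with log2 differences of -0.070 and -0.067. Dabigatran replicate 10 (7.976) and untreated replicate 8 (7.979) were closer than counting error, whose standard error for the untreated replicate gap was 0.0231.

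In the titin and M-band group, 2 of 3 named genes were analysed and neither passed. Ttn libraries stood at 11.79 and 11.82 log2 CPM in untreated, 11.85 and 11.92 in rivaroxaban and 11.85 and 11.93 in dabigatran hearts. All 4 treated libraries lay above both untreated ones, by a log2 difference of 0.075 with rivaroxaban and 0.082 with dabigatran (limma adjusted p = 0.515 and 0.541). Myom2, the M-band protein myomesin-2 (ENSMUSG00000031461, chromosome 8, 15057653 to 15133541), varied most between untreated libraries among the 31 genes. It stood at 9.95 and 10.47 log2 CPM in untreated replicates 8 and 9, 10.39 and 10.55 with rivaroxaban and 10.10 and 10.28 with dabigatran. Of the 4 treated libraries 3 fell within that range, and both rivaroxaban libraries lay above both dabigatran ones. For Myom2 the log2 difference was 0.26 with rivaroxaban (interval -0.031 to 0.55, limma adjusted p = 0.346) and -0.023 with dabigatran (-0.31 to 0.27). The rivaroxaban value rests on the untreated replicates: it was 0.52 and called without untreated replicate 9 (limma adjusted p = 0.0228), and 0.001 without untreated replicate 8.

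**Figure D3:**
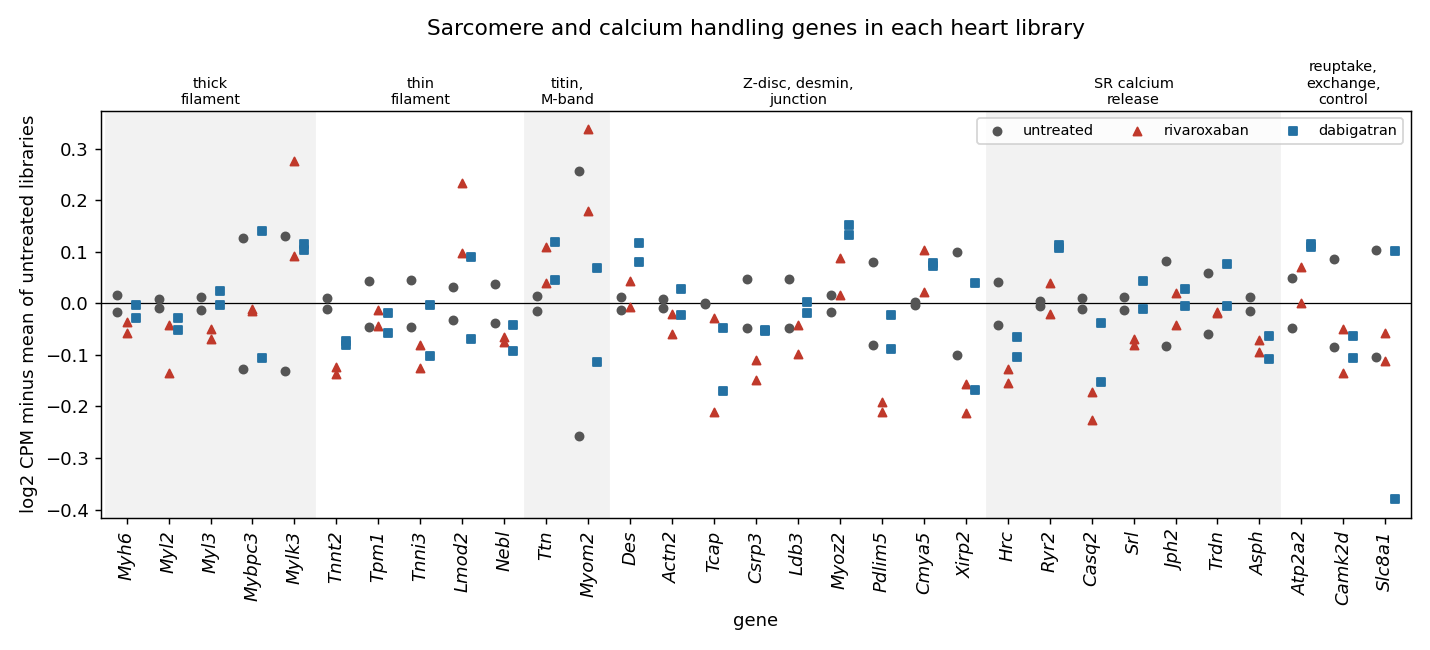
Each library's log2 CPM minus the mean of the 2 untreated libraries (vertical axis) for the 31 genes, with untreated libraries as circles, rivaroxaban as triangles and dabigatran as squares. Most points lie within 0.2 of 0, and the widest gaps between replicates are those of Myom2 in untreated hearts (0.52) and Slc8a1 in dabigatran hearts (0.48).

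Of the 9 analysed Z-disc, desmin and cell junction genes none passed. Pdlim5, a PDZ-LIM adaptor of the Z-disc (ENSMUSG00000028273, chromosome 3, 142239590 to 142395696), had one of the 2 lowest log2 differences with rivaroxaban, the other being that of Casq2. Pdlim5 stood at 9.89 and 9.73 log2 CPM in untreated, 9.60 and 9.62 in rivaroxaban and 9.72 and 9.79 in dabigatran hearts. Rivaroxaban libraries were the lowest 2 of the 6, and dabigatran libraries overlapped the untreated ones. Pdlim5 had a log2 difference of -0.20 with rivaroxaban (interval -0.33 to -0.070, unadjusted p = 0.00636, limma adjusted p = 0.113) and -0.056 with dabigatran. The rivaroxaban value was -0.12 without untreated replicate 8 and -0.28 without untreated replicate 9. Csrp3, muscle LIM protein, stood at 10.73 and 10.64 log2 CPM in untreated, 10.54 and 10.58 in rivaroxaban and 10.64 and 10.63 in dabigatran hearts. Rivaroxaban was again lowest, with a log2 difference of -0.13 (limma adjusted p = 0.235), beside -0.052 with dabigatran. For Csrp3 the rivaroxaban value was -0.082 without untreated replicate 8. Xirp2, an actin-binding protein of the intercalated disc, stood at 9.11 and 8.91 log2 CPM in untreated, 8.80 and 8.85 in rivaroxaban and 8.84 and 9.05 in dabigatran hearts, with a log2 difference of -0.18 with rivaroxaban (limma adjusted p = 0.259).

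Myoz2, calsarcin-1, which ties calcineurin to the Z-disc, had the smallest p of the 31 genes with dabigatran over all 6 libraries. It stood at 10.35 and 10.32 log2 CPM in untreated, 10.35 and 10.43 in rivaroxaban and 10.49 and 10.47 in dabigatran hearts. Both dabigatran libraries were above all others. Myoz2 had a log2 difference of 0.14 with dabigatran (interval 0.033 to 0.25, unadjusted p = 0.0155, limma adjusted p = 0.204) and 0.052 with rivaroxaban. Des, the intermediate filament protein desmin, stood at 11.62 and 11.64 log2 CPM in untreated, 11.62 and 11.67 in rivaroxaban and 11.75 and 11.71 in dabigatran hearts. Its dabigatran libraries were the highest 2, and it had log2 differences of 0.018 with rivaroxaban and 0.10 with dabigatran (limma adjusted p = 0.889 and 0.409). Tcap, telethonin, which caps titin at the Z-disc, had log2 differences of -0.12 and -0.11. Actn2, alpha-actinin-2, Ldb3, also known as Cypher, and Cmya5, myospryn, had values between -0.070 and 0.076 in both drug comparisons.

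Of the 7 genes of calcium release from the sarcoplasmic reticulum none passed, and 6 of 7 had a log2 difference below 0 with rivaroxaban and 3 of 7 with dabigatran. Casq2, cardiac calsequestrin, which stores calcium in the reticulum (ENSMUSG00000027861, chromosome 3, 102086415 to 102146514), had the smallest p of the 31 genes with rivaroxaban over all 6 libraries. It stood at 10.37 and 10.39 log2 CPM in untreated, 10.21 and 10.16 in rivaroxaban and 10.23 and 10.35 in dabigatran hearts. All 4 treated libraries were below both untreated ones. Casq2 had a log2 difference of -0.20 with rivaroxaban (interval -0.32 to -0.080, unadjusted p = 0.00375, limma adjusted p = 0.0887) and -0.095 with dabigatran (-0.21 to 0.025, limma adjusted p = 0.459). The dabigatran value was -0.037 without dabigatran replicate 10 and -0.15 without replicate 12, while the rivaroxaban value stayed between -0.23 and -0.17 over left-out libraries. Its mean over both drugs was -0.15 (interval -0.25 to -0.044, limma adjusted p = 0.128). Hrc, a histidine-rich calcium-binding protein of the same store, stood at 10.85 and 10.77 log2 CPM in untreated, 10.68 and 10.66 in rivaroxaban and 10.71 and 10.75 in dabigatran hearts. All treated libraries were again below the untreated ones, with log2 differences of -0.14 and -0.085 (limma adjusted p = 0.189 and 0.494).

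Ryr2, the ryanodine receptor through which this calcium leaves, showed another pattern. It stood at 10.34 and 10.33 log2 CPM in untreated, 10.31 and 10.37 in rivaroxaban and 10.45 and 10.44 in dabigatran hearts. Dabigatran libraries were above the other 4, with a log2 difference of 0.11 (interval 0.004 to 0.22, unadjusted p = 0.0432, limma adjusted p = 0.320). Asph, whose products include junctin, stood at 8.15 and 8.18 log2 CPM in untreated, 8.07 and 8.10 in rivaroxaban and 8.06 and 8.10 in dabigatran hearts. All treated libraries were below the untreated ones, with log2 differences of -0.081 and -0.085. Trdn, triadin, which links calsequestrin to the ryanodine receptor, had log2 differences of -0.017 and 0.036. Jph2, junctophilin-2, which holds the reticulum next to the cell membrane, had log2 differences of -0.010 and 0.012. Srl, sarcalumenin, had -0.074 and 0.017.

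Of the genes of calcium reuptake, exchange and control, 3 of 4 were analysed and none passed. Atp2a2, the SERCA2 pump (ENSMUSG00000029467, chromosome 5, 122453513 to 122502225), stood at 14.07 and 14.16 log2 CPM in untreated, 14.12 and 14.19 in rivaroxaban and 14.22 and 14.23 in dabigatran hearts. Dabigatran libraries were above the other 4 and rivaroxaban libraries overlapped the untreated ones. Atp2a2 had a log2 difference of 0.036 with rivaroxaban and 0.11 with dabigatran (interval -0.035 to 0.26, limma adjusted p = 0.484), and the latter was 0.064 without untreated replicate 8. Slc8a1, the gene with the fewest reads of the 31, stood at 6.38 and 6.18 log2 CPM in untreated, 6.17 and 6.22 in rivaroxaban and 6.38 and 5.90 in dabigatran hearts. Its dabigatran libraries held the second highest and the lowest of the 6 values, and its log2 difference there was -0.14 (interval -0.42 to 0.14). Camk2d stood at 7.57 and 7.74 log2 CPM in untreated, 7.60 and 7.52 in rivaroxaban and 7.55 and 7.59 in dabigatran hearts, which overlapped, with log2 differences of -0.092 and -0.084.

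Direction and overlap were also counted over the 31 genes. With rivaroxaban 22 of 31 had a log2 difference below 0, beside 48.5% of all tested genes, and in 15 of 31 both rivaroxaban libraries lay under both untreated ones, beside 24.5%. In 3 of 31 (Cmya5, Lmod2 and Ttn) they lay above, beside 26.1%. With dabigatran 17 of 31 were below 0, beside 49.2%, 8 of 31 lay under without overlap, beside 20.8%, and 6 of 31 above, beside 22.8%. Against dabigatran, 25 of 31 were lower with rivaroxaban, beside 49.6%, and 14 of 31 lay lower without overlap, beside 20.4%, and 2 of 31 higher, beside 19.3%. For the mean of both drugs 19 of 31 were below 0, beside 49.5%, all 4 treated libraries lay under the untreated ones in 8 of 31, beside 11.7%, and above them in 2 of 31, beside 14.7%. These comparisons share libraries: both rivaroxaban comparisons use its 2 libraries, and all comparisons with untreated use the same 2 controls. Rivaroxaban replicate 14 stood apart in a small way: 4 of 31 genes were above their own mean over the 6 libraries there, against 12 in rivaroxaban replicate 15 and 17 to 20 in the other 4, and the median deviation was -0.046 on the log2 scale. Without that replicate the median log2 difference was -0.041 with rivaroxaban and -0.034 against dabigatran, from -0.059 and -0.048 with it. The drugs were given at different doses, and the interval of the difference between them lay within 1.2-fold for 26 of 31 genes and within 1.5-fold for all 31.

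Replicates differed by more than counting error for most of these genes. The median gap between the 2 replicates of a group was 0.076 in untreated, 0.053 in rivaroxaban and 0.043 in dabigatran hearts on the log2 scale, and it exceeded 2 counting standard errors for 27, 24 and 26 of 31 genes. Over all tested genes the median gap was 0.098, 0.083 and 0.097.

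Beyond the 31 genes, 60 other genes of the sarcomere and of calcium handling had been listed, of which 57 were matched and 55 tested. Among 28 tested sarcomere genes 0 were higher and 1 lower with rivaroxaban, 0 higher and 2 lower with dabigatran, and 0 higher and 3 lower with the mean of both drugs. Among 27 tested calcium handling genes none was called in any of the 4 comparisons with limma. With rivaroxaban 2.46%, with dabigatran 1.88% and with both drugs 3.3% of all tested genes were called. Myom3, myomesin-3, an M-band protein related to Myom2, was called lower with rivaroxaban than in untreated hearts. It stood at 3.00 and 3.05 log2 CPM in untreated, 2.28 and 2.28 in rivaroxaban and 2.46 and 2.66 in dabigatran hearts, from 140 to 273 reads per library. All treated libraries were below the untreated ones. For Myom3 the log2 difference was -0.74 with rivaroxaban (SE 0.127, limma adjusted p = 0.0135), which is 0.598 of the untreated level, and -0.46 with dabigatran (limma adjusted p = 0.106). The rivaroxaban call of Myom3 was lost without any one of the untreated or rivaroxaban libraries (limma adjusted p from 0.06438 to 0.1075), while its log2 difference stayed between -0.77 and -0.72.

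Hspb7, a small heat shock protein that binds actin and filamin in heart muscle, was called lower with dabigatran than in untreated hearts. It stood at 11.99 and 11.78 log2 CPM in untreated, 11.63 and 11.58 in rivaroxaban and 11.47 and 11.59 in dabigatran hearts, so that all treated libraries were below the untreated ones. For Hspb7 the log2 difference was -0.36 with dabigatran (SE 0.072, limma adjusted p = 0.0370) and -0.28 with rivaroxaban (limma adjusted p = 0.0776). Synpo2l, a Z-disc protein also called CHAP, stood at 7.87 and 7.83 log2 CPM in untreated, 7.67 and 7.69 in rivaroxaban and 7.59 and 7.63 in dabigatran hearts. Its log2 difference was -0.24 with dabigatran (SE 0.049, limma adjusted p = 0.0376) and -0.17 with rivaroxaban (limma adjusted p = 0.105). Between the drugs none of the 3 differed past the threshold (limma adjusted p = 0.594 for Myom3, 0.836 for Hspb7 and 0.777 for Synpo2l). The dabigatran call of Synpo2l was lost without any one of the 6 libraries (limma adjusted p from 0.0604 to 0.1768, log2 difference from -0.26 to -0.22). That of Hspb7 was lost without untreated replicate 8 (limma adjusted p = 0.194), dabigatran replicate 10 (0.198), rivaroxaban replicate 14 (0.06982) or 15 (0.07021), and kept without untreated replicate 9 or dabigatran replicate 12, with log2 differences from -0.46 to -0.25. Both were lost when the 2 groups were fitted alone (limma adjusted p = 0.06856 for Hspb7 and 0.0814 for Synpo2l). Without untreated replicate 9, Hspb7 was also called with rivaroxaban (log2 difference -0.38, limma adjusted p = 0.0313). For the mean of both drugs, the Myom3 call was lost without untreated replicate 8 (limma adjusted p = 0.102), untreated replicate 9 (0.0869) or rivaroxaban replicate 15 (0.05039). The Hspb7 call there was lost without untreated replicate 8 (limma adjusted p = 0.209) or rivaroxaban replicate 14 or 15 (0.0544 and 0.0984), and the Synpo2l call without any library but dabigatran replicate 12 (0.0521 to 0.190).

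**Figure D4:**
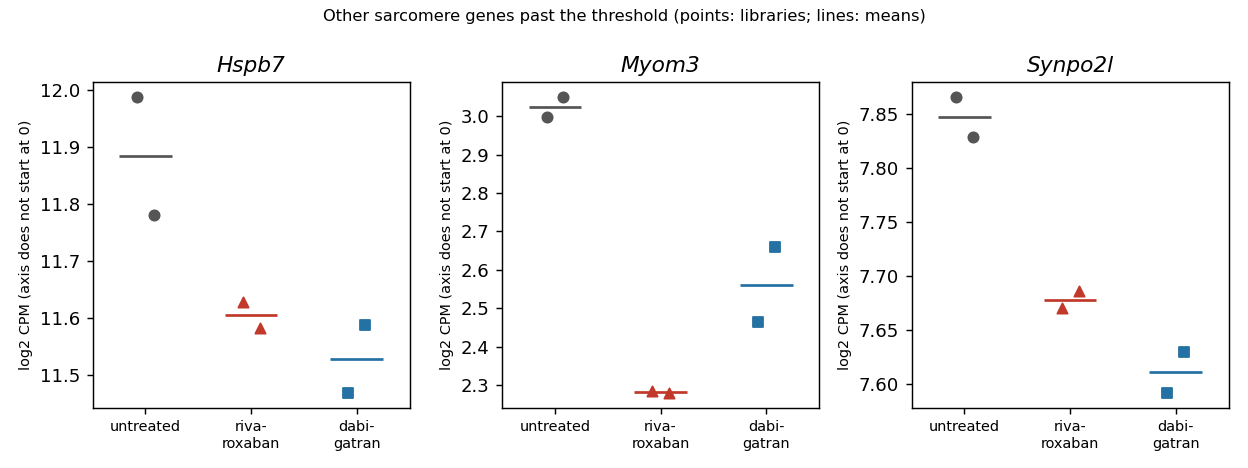
Log2 CPM of Hspb7, Myom3 and Synpo2l in each library (points) with the group mean (lines); the vertical axes do not start at 0. In all 3 genes the 4 treated libraries lie below both untreated ones.

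The ratio of 2 partner genes within a library does not depend on how the library was scaled. The log2 ratio of Myh6 to Myh7, the beta heavy chain that rises in stressed mouse hearts, was 4.21 and 4.20 in untreated, 4.21 and 4.19 in rivaroxaban and 4.15 and 4.16 in dabigatran hearts. The difference was -0.006 with rivaroxaban (exact permutation p = 0.667, two-sided) and -0.055 with dabigatran (exact permutation p = 0.333). The dabigatran libraries lay below all others, by a ratio of 0.963 to the untreated value. With 2 libraries against 2 the smallest p this test allows is 0.333, so it cannot reach 0.05. Myh6 and Myh7 share long stretches of sequence and Myh7 overlaps the opposite-strand gene Mhrt, so their reads can be split or shared by the counting. Tnni1, the slow troponin I, had 7 to 11 reads per library, and the log2 ratio of Tnni3 to it varied between 13.6 and 14.3 with no exact permutation p under 0.533.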

How the data were processed

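The deposited table holds TMM-scaled log2 CPM, 1 value per gene and library, as its name and the file headers state. For the steps before it, the notes list STAR for alignment to mm10 and edgeR, beside bcl2fastq, Trim Galore and FastQC, per the submitters' processing notes. Tool versions, the read counter, its strand setting and the gene models are not stated in these sources. All libraries share a lowest value of -4.04, a floor set before the log2 was taken. With it subtracted, 100% of the values under 200 reads were whole reads within 0.02, which gave the read totals.

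Of 16229 genes, the 12981 whose log2 CPM averaged 0 or more were fitted with limma 3.58.1 (R 4.3.3): 3 group means over 6 libraries, a mean-variance trend, 3 residual and 7.75 prior degrees of freedom, and two-sided p-values adjusted by Benjamini-Hochberg over all tested genes. Ratios used exact permutation tests (SciPy 1.17.1). Coordinates and exon lengths are from GENCODE M21 (GRCm38, which is mm10). Reads shared with opposite-strand genes (Des, Myl2, Myl3, Asph) or a same-strand gene (Tnni3) cannot be told apart. The fit was tested on simulated data with independent libraries and planted changes larger than any difference seen in the 31 genes. That test does not bear on differences as small as theirs.

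The genes and lists were chosen with earlier results of these data known. Library values are given for sarcomere and calcium handling genes past the threshold. In each role group they are given for the gene of highest mean log2 CPM, not divided by length, and the 2 of smallest unadjusted p in each comparison. Those of Mybpc3 and Xirp2 are given as well, outside this rule. Intervals and p-values are given for only some of these genes. The ratio of Pln to Atp2a2 was not analysed here. Alternatives changed the filter, pseudocount, centring, trend, robust fit, weights (voom), groups fitted and libraries used.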

Additional observations from a re-analysis of the deposited data

How the results depend on the processing

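Of 59 alternative fits, 58 called none of the 31 genes; the exception is Myom2 with rivaroxaban without untreated replicate 9, so that count ran from 0 to 1 over left-out libraries. Without the mean-variance trend 0 genes of the whole table were called in all 4 comparisons (1938, 1728, 984 and 2020 at an unadjusted limma p under 0.05). Between the drugs, 1 gene was called with a filter at a mean log2 CPM of 2 and 6 when only those groups were fitted. Leaving out 1 library gave 61 to 410 genes for rivaroxaban, 73 to 270 for dabigatran, 0 to 20 between the drugs and 158 to 498 for both drugs. The median over the 31 genes was -0.076 for rivaroxaban and -0.046 for both drugs when centred on tested genes, and -0.030 for dabigatran when centred on abundant other genes. Over left-out libraries it ran from -0.063 to -0.041 for rivaroxaban, -0.028 to -0.004 for dabigatran, -0.059 to -0.034 between the drugs and -0.038 to -0.025 for both drugs.

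Log2 differences that changed sign were all small or rested on 1 library, and none was called. When centred on tested genes, Ryr2 was -0.008 with rivaroxaban, Myl3 -0.001 with dabigatran and Asph -0.002 between the drugs. When centred on abundant other genes, Myl3 was -0.004 and Lmod2 -0.003 with dabigatran, and Camk2d 0.003, Nebl 0.008 and Ttn 0.004 between the drugs. Over left-out libraries, rivaroxaban differences ran from -0.013 to 0.085 (Atp2a2), -0.007 to 0.044 (Des), -0.020 to 0.039 (Ryr2) and -0.188 to 0.019 (Slc8a1). Dabigatran differences ran from -0.170 to 0.001 (Camk2d), -0.067 to 0.090 (Lmod2), -0.032 to 0 (Myh6), -0.003 to 0.024 (Myl3), -0.022 to 0.242 (Mylk3), -0.280 to 0.235 (Myom2), -0.137 to 0.025 (Pdlim5) and -0.380 to 0.101 (Slc8a1). Between the drugs they ran from -0.018 to 0.025 (Asph), -0.051 to 0.035 (Camk2d), -0.017 to 0.167 (Mylk3), -0.029 to 0.024 (Nebl), -0.186 to 0.295 (Slc8a1) and -0.044 to 0.031 (Ttn), and for both drugs from -0.139 to 0.376 (Myom2) and -0.232 to 0.008 (Slc8a1). The cause was not tested. With 2 libraries a group, leaving 1 out assumes that the lone sample varies like the other groups. No paired analysis was possible because the groups share no replicate numbers.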
